A study of Mus musculus with 12 samples.

Results

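Messenger RNA of Myc, of its relatives and of genes for ribosome biogenesis was followed in sorted cells of mouse leukaemias driven by MLL-AF9. The list held 40 genes, given by name and grouped by role. A probe set of their own was present for 39 of them. Fbl, the fibrillarin gene, was represented only by a probe set that carries several gene symbols and has no value here. All 39 passed the filter on low values, among 19152 genes tested of 22180 measured. Each gene was read by its probe set with the highest mean.

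The series held 12 Affymetrix arrays, made from 6 leukaemias that all carry the fusion oncogene MLL-AF9. Leukaemias 73, 75 and 79 are labelled WT for Dnmt3b, and leukaemias 81, 83 and 85 are labelled Dnmt3b-knockin, described as overexpression. Cells of each leukaemia were sorted by FACS for c-kit, a growth factor receptor that marks immature blood cells. One array came from the positive and 1 from the negative fraction. This made 4 groups of 3 arrays. The labels give no age, strain, time or agent, do not name what drives the knock-in, and do not state whether each number is a separate mouse, so p-values may measure a spread that is partly technical. The tissue is bone marrow in the titles and spleen in the source field.

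Myc encodes a transcription factor that binds DNA with its partner Max, most often at the E-box CACGTG, and it drives cell growth. Among the genes it is best known to activate are those that make ribosomes: RNA polymerase I, the small nucleolar ribonucleoproteins that modify ribosomal RNA, and the assembly factors of both subunits. In blood, high Myc activity marks dividing progenitors, and it declines as myeloid cells mature.

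Dnmt3b, the de novo DNA methyltransferase named by the labels, had the same range of levels under both genotype labels, with log2 values of 6.16 to 6.64 on the 6 knock-in arrays and 6.10 to 6.66 on the 6 WT arrays, and the difference over both fractions was 0.03 (95% confidence interval -0.19 to 0.25, adjusted p = 0.964 with limma). The knock-in label therefore only names the groups here. Kit followed the sort, with 7.88 to 8.34 on the c-kit-positive arrays and 6.47 to 6.87 on the c-kit-negative arrays. Levels of myeloid genes varied widely: Elane, the neutrophil elastase gene, had group means of 10.65 to 12.43, and the monocyte gene Ccr2 had 5.42 to 6.13. The median over all probe sets was 5.56 to 5.71 across arrays, and arrays of a group correlated at 0.933 to 0.986. Leukaemia 81 stood apart in Xist, which is transcribed from an inactivated X chromosome, at 6.30 and 6.27 against 9.83 to 11.66 on the other arrays. The labels give no sex, and counts without leukaemia 81 are given beside the results where it changed them.

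The promoters of the listed genes were read from RefSeq, build GRCm38.p6, as windows from 250 bases before to 50 bases after the start site. A window was found for 33 of the 40 genes and not for Myc, Fbl, Npm1, Rrp12, Bop1, Rrs1 and Srm. The E-box CACGTG, which reads the same on both strands, was present in 7 of these 33 genes (21.2%), against 9.72% of 14902 tested genes with a window. The related word CACGCG, or CGCGTG on the other strand, was present in 11 genes (33.3%), against 15.1% of tested genes. A match is a description of the letters and not a measured binding site. The median GC content was 59.7% in the 37 windows of the listed genes and 57.7% in those of all tested genes.

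The next 5 sequences are shown because they hold CACGTG between 70 bases before and 30 bases after the start site. They cover Myc's partner (Max), small subunit processing (Wdr43) and large subunit assembly (Nop2, Pes1 and Nle1). The other 2, Dkc1 and Noc4l, are shown because they had the smallest adjusted p between the genotype labels, and their windows do not hold this word. Each runs 5′ to 3′ along the gene from 70 bases before to 30 bases after the start, and capitals mark CACGTG.
Max (chr12:76962219-76962318, minus strand): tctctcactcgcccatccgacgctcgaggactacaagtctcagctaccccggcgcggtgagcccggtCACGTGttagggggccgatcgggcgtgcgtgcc
Nop2 (chr6:125131813-125131912, plus strand): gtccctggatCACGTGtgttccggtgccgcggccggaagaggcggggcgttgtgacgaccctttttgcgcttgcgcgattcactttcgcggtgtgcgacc
Pes1 (chr11:3963905-3964004, plus strand): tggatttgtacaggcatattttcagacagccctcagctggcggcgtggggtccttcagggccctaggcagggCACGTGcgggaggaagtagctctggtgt
Wdr43 (chr17:71616145-71616244, plus strand): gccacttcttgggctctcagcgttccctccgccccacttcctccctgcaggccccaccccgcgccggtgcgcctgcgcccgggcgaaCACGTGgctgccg
Nle1 (chr11:82908366-82908465, minus strand): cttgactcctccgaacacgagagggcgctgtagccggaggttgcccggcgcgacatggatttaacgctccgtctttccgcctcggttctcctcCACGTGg
Dkc1 (chrX:75095784-75095883, plus strand): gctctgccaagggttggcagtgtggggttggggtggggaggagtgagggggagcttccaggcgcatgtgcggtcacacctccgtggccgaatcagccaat
Noc4l (chr5:110653353-110653452, minus strand): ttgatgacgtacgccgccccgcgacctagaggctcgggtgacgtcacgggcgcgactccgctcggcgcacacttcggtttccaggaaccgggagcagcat
With the start site counted as 0, the E-box began at -3 in Max, -60 in Nop2, 2 in Pes1, 17 in Wdr43 and 23 in Nle1. Utp20 and Mybbp1a held it at 37 and 40. Of these 7 genes, Wdr43 and Mybbp1a were among the 11 of 39 listed genes that rose in c-kit-positive cells as described further on, and Nop2 and Pes1 were added with the replicate block, when 26 of 39 rose.

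Across the 12 arrays, the listed genes were highest in c-kit-positive cells of WT leukaemias and lowest in c-kit-negative cells of leukaemias labelled knock-in. Each array was summarised by the median deviation of the 39 genes from their own means, in log2 units. In c-kit-positive cells it was 0.28, 0.40 and 0.52 for 73, 75 and 79, against 0.03, 0.05 and -0.28 for 81, 83 and 85. In c-kit-negative cells it was -0.17, -0.10 and 0.13 in the WT leukaemias and -0.04, -0.28 and -0.45 in the others. The WT c-kit-positive arrays stood above all other arrays. The c-kit-positive arrays of knock-in leukaemias lay in the same range as WT c-kit-negative arrays, apart from leukaemia 85.

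**Figure D1:**
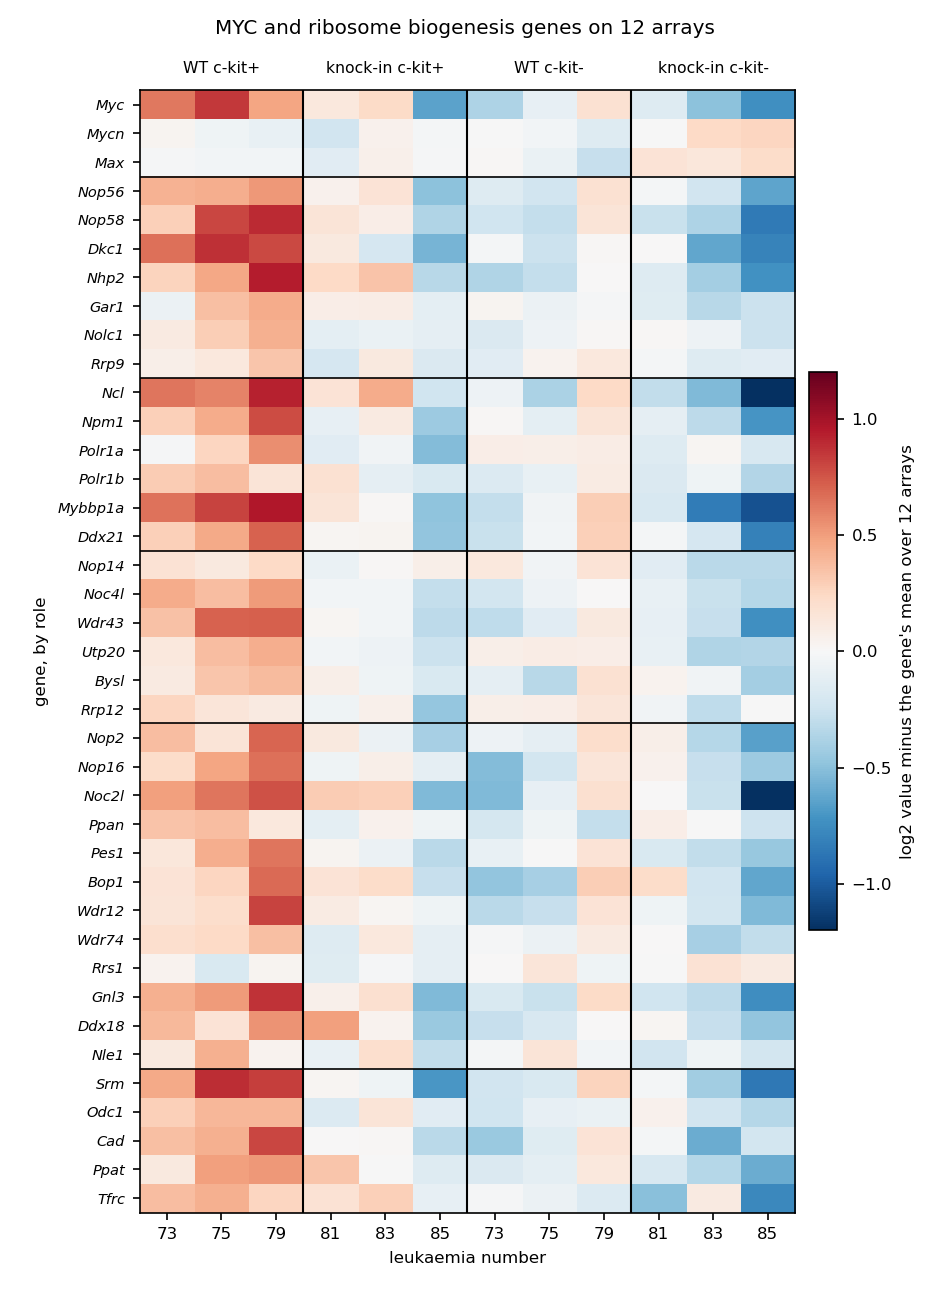
Log2 value minus the gene's mean over 12 arrays (colour scale, red above and blue below the mean) for 39 genes in rows, ordered by role, and 12 arrays in columns, by group and leukaemia number. Most rows are red in the 3 WT c-kit-positive columns and blue in the c-kit-negative column of leukaemia 85, while Mycn, Max and Rrs1 stay pale.

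Leukaemias also differed within groups. Leukaemia 79 was the highest WT leukaemia for 28 of 39 genes in c-kit-positive cells and for 31 in c-kit-negative cells. Leukaemia 85 was the lowest knock-in leukaemia for 30 genes in c-kit-positive and 28 in c-kit-negative cells. The highest knock-in leukaemia differed between the fractions, with leukaemia 83 highest for 24 genes in c-kit-positive cells and leukaemia 81 for 31 in c-kit-negative cells. The median SD within a group was 0.147 to 0.246 for the listed genes and 0.117 to 0.177 for all tested genes.

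The first comparison asked how the genotype labels differ in c-kit-positive cells. The listed genes had lower levels in leukaemias labelled knock-in, by a median log2 difference of -0.43, or 1.34-fold, against 0.01 for all tested genes. The difference was below 0 for 38 of 39 genes. None of them passed the adjusted threshold of 0.05 with limma, where 0.141% of all tested genes did. At an unadjusted p under 0.05, 27 of 39 did, all lower, against 9.89% of tested genes in either direction. All 3 knock-in arrays lay below all 3 WT arrays for 27 of 39 genes, against 9.88% of tested genes. In sorted bulk samples, fewer cells of a type and less RNA per cell cannot be told apart.

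Among the regulators, Myc had log2 levels in WT c-kit-positive cells of 8.34, 8.56 and 8.18, in the order 73, 75 and 79. The knock-in values, in the order 81, 83 and 85, were 7.84, 7.94 and 7.07. The groups did not overlap, and leukaemia 85 was the lowest. The difference was -0.75 (SE 0.22, 95% confidence interval -1.23 to -0.26), or 1.68-fold lower, with an adjusted p of 0.236. Max, the binding partner, had 7.91, 7.89 and 7.89 against 7.79, 7.99 and 7.91, with a difference of 0.00 (95% confidence interval -0.21 to 0.21). Mycn, a relative of Myc that is used mainly in neural and embryonic tissue, had 4.65, 4.57 and 4.53 against 4.39, 4.67 and 4.60. These Mycn values lie around the filter value of 4.61, and the groups overlapped for both Mycn and Max.

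Small nucleolar ribonucleoproteins guide the chemical modification of ribosomal RNA. Dkc1, the dyskerin gene, encodes the pseudouridine synthase of the H/ACA class. Its c-kit-positive levels were 7.34, 7.56 and 7.47 under the WT label and 6.80, 6.48 and 6.12 under the knock-in label. The groups stood apart, and the difference was -0.99 (SE 0.20), or 1.99-fold lower, the largest of the 39 genes, with an adjusted p of 0.0887. Without leukaemia 81 it was -1.15 and passed (adjusted p = 0.00977), and it passed in a fit to these 6 arrays alone (adjusted p = 0.0476). Under every other alternative, with the replicate block or without any other single leukaemia among them, none of the 39 genes passed in this comparison. Nop58, a core protein of the C/D class, had 7.04, 7.56 and 7.65 against 6.91, 6.83 and 6.39. Its groups did not overlap either, with a difference of -0.71 (SE 0.20, adjusted p = 0.215).

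The other H/ACA proteins differed less between the labels. Nhp2 had 6.90, 7.10 and 7.58 against 6.87, 6.98 and 6.30, and Gar1 had 6.13, 6.56 and 6.64 against 6.28, 6.29 and 6.08. Both overlapped, with differences of -0.48 and -0.23. Nop56, the partner of Nop58, had -0.55, and Nolc1, a nucleolar chaperone of these particles, had -0.37, both without overlap. Rrp9, a protein of the U3 particle, had -0.26. Another probe set of Nop56 had -0.10 and a dim one -0.39. All 7 measured genes of this role were below 0.

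Among nucleolar proteins and RNA polymerase I, Mybbp1a, a nucleolar protein that binds Myb, had the largest difference. Its levels were 8.16, 8.32 and 8.47 in WT leukaemias and 7.66, 7.52 and 7.03 in the others. The difference was -0.91 (SE 0.22), or 1.88-fold lower, with an adjusted p of 0.161, and with 0.0446 at -1.04 without leukaemia 81. Npm1, the nucleophosmin gene, had 9.51, 9.67 and 10.01 against 9.13, 9.33 and 8.79, a difference of -0.64 (SE 0.18, adjusted p = 0.210), and a second probe set gave -0.28. Ncl, the nucleolin gene, had 8.97, 8.92 and 9.25 against 8.49, 8.77 and 8.09, a difference of -0.59. For all 3 genes the knock-in arrays lay below the WT arrays, as for 9.88% of all tested genes. Of the polymerase subunits, Polr1a, the catalytic one, had -0.50 without overlap. Polr1b had 7.02, 7.08 and 6.87 against 6.89, 6.60 and 6.53, and these groups overlapped by a small margin. Ddx21, a helicase of ribosomal RNA transcription, had -0.62, and its other probe set had -0.17.

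The small subunit processome cuts and folds the precursor of the small ribosomal subunit. All 6 of its listed genes had knock-in arrays below WT arrays, against 9.88% of tested genes. Noc4l, which acts with Nop14, had 6.26, 6.18 and 6.32 against 5.78, 5.78 and 5.53. The difference was -0.56 (SE 0.11, 95% confidence interval -0.79 to -0.32), with the smallest adjusted p of the list, 0.0837, and 0.0481 without leukaemia 81. Wdr43, shown above with its E-box, had 7.99, 8.34 and 8.35 against 7.66, 7.60 and 7.32, a difference of -0.70 (SE 0.17, adjusted p = 0.165). Nop14 itself had 5.97, 5.91 and 6.03 against 5.71, 5.81 and 5.86, the smallest difference of this role at -0.18. Utp20 had -0.43, and Bysl and Rrp12, which act late in small subunit maturation and export, had -0.32 each.

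Among the 12 genes of large subunit assembly, 8 had knock-in arrays below WT arrays without overlap, against 9.88% of tested genes. Gnl3, the nucleostemin gene, had 6.70, 6.79 and 7.14 against 6.34, 6.47 and 5.75, a difference of -0.68 (SE 0.21, adjusted p = 0.239). Pes1, a member of the PeBoW complex, had 7.59, 7.89 and 8.10 against 7.49, 7.38 and 7.13, a difference of -0.53 (SE 0.14, adjusted p = 0.194). Bop1 and Wdr12, the other members of PeBoW, had -0.33 and -0.37, and only Bop1 overlapped. Rrs1, which helps to load the small RNA of the large subunit, was the exception in this role. It had 6.79, 6.56 and 6.78 against 6.60, 6.73 and 6.64, a difference of -0.05, and its other probe set had -0.07. The methyltransferase gene Nop2 had -0.51, Noc2l -0.61, Nop16 -0.48, Ppan -0.32, Wdr74 -0.31, Ddx18 -0.33 and Nle1 -0.25. Other probe sets gave -0.82 for Ppan and -0.04 for Ddx18.

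Growth enzymes and the iron receptor complete the list. Srm, the spermidine synthase gene, had 8.63, 9.06 and 9.0 against 8.20, 8.12 and 7.48. This was a difference of -0.96 (SE 0.23), or 1.95-fold lower, with an adjusted p of 0.158. Cad, which starts pyrimidine synthesis, had 6.84, 6.90 and 7.28 against 6.48, 6.49 and 6.15, a difference of -0.63. Odc1, the rate-limiting enzyme gene of polyamine synthesis, had 7.51, 7.62 and 7.62 against 7.06, 7.38 and 7.09, a difference of -0.41. These 3 genes had knock-in arrays below WT arrays, as did 9.88% of all tested genes. Ppat, the committed step of purine synthesis, had 6.78, 7.16 and 7.19 against 7.0, 6.66 and 6.51. Tfrc, the transferrin receptor gene, had 7.44, 7.49 and 7.33 against 7.24, 7.35 and 6.97. Both overlapped, at -0.32 and -0.23.

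**Figure D2:**
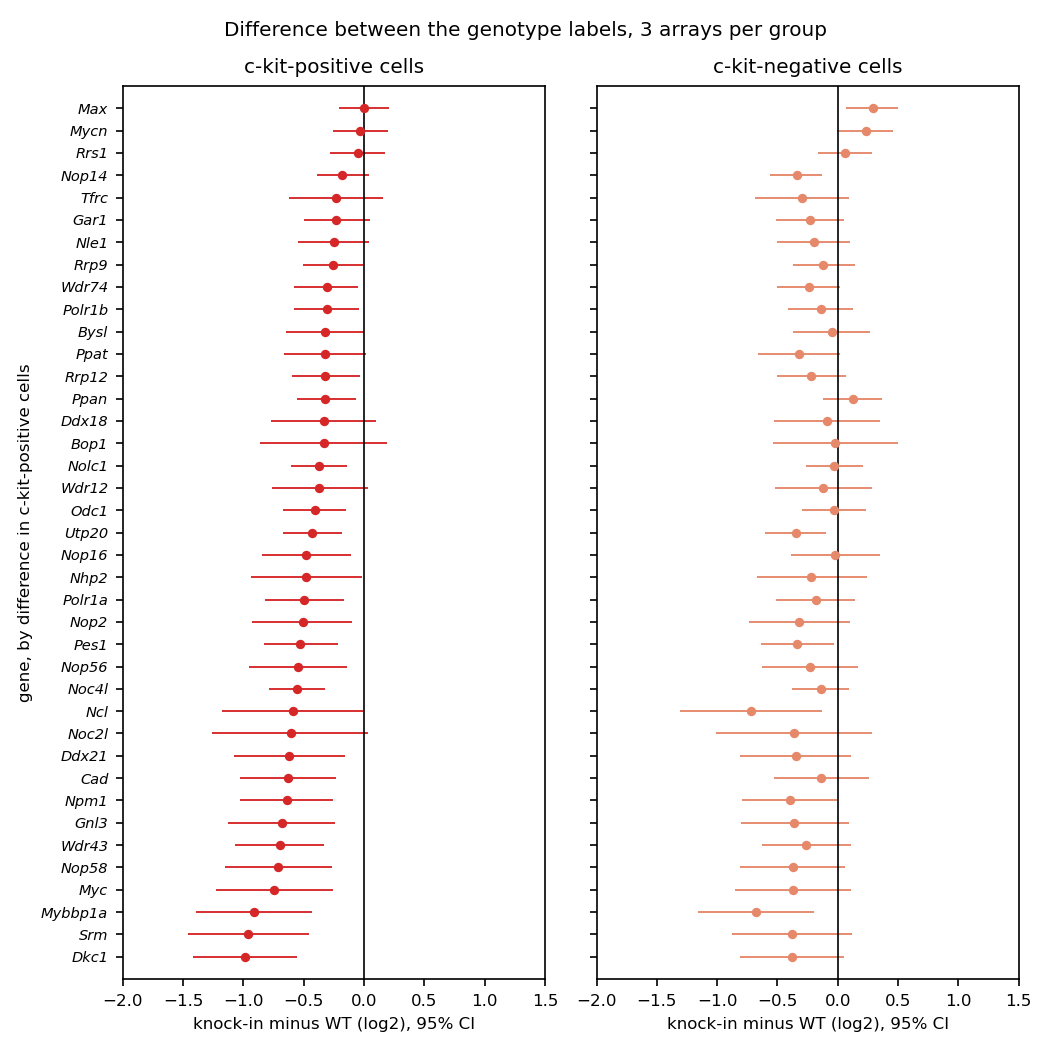
Knock-in minus WT difference in log2 units for 39 genes, with 95% confidence intervals from limma, in c-kit-positive cells (left) and c-kit-negative cells (right), 3 arrays per group. Genes are ordered by the left panel, where Dkc1 has the lowest difference (-0.99) and Max lies at 0.00, and most points of the right panel lie nearer 0.

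In c-kit-negative cells the same comparison gave a smaller median of -0.23, against -0.00 for all tested genes. Of 39 genes, 35 were below 0, and 8 had knock-in arrays below WT arrays, against 4.66% of tested genes. These were Gar1, Polr1a, Nop14, Utp20, Rrp12, Pes1, Nle1 and Ppat. None passed with limma, where 0.0627% of tested genes did. At an unadjusted p under 0.05 there were 6 lower and 1 higher, against 6.1% of tested genes in either direction. Ncl had the lowest difference at -0.72 (SE 0.27, adjusted p = 0.787), followed by Mybbp1a at -0.68, while Dkc1 and Srm had -0.38 each. Myc had -0.37 with overlap. Max ran the other way: its c-kit-negative levels were 8.09, 8.06 and 8.15 in knock-in leukaemias and 7.94, 7.85 and 7.65 in WT leukaemias. It was the 1 of 39 genes whose knock-in arrays lay above the WT arrays, at 0.29 (adjusted p = 0.753). Over all tested genes 809 of 19152 had this order.

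Over both fractions, averaging the 2 arrays of a leukaemia, the median difference was -0.32. None of 39 genes passed with limma, where 0.0261% of tested genes did. At an unadjusted p under 0.05 there were 24, all lower, against 8.37% of tested genes in either direction. Mybbp1a had -0.80 (SE 0.19, adjusted p = 0.302) and Dkc1 -0.69 (SE 0.17, adjusted p = 0.330). Both passed without leukaemia 81. For Myc the mean was 7.43 ± 0.36 (SD, n = 3 leukaemias) in the knock-in group and 7.99 ± 0.13 (SD, n = 3 leukaemias) in the WT group. Permuting the 6 leukaemia means exactly, two-sided, gave p = 0.1 for Myc, the smallest that 3 against 3 allows (0.2 adjusted over 6 exact tests). Max, at 0.14, also had an exact p of 0.1, and Mycn, at 0.10, an exact p of 0.3.

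Late neutrophil markers had higher levels under the knock-in label, while the immature myeloid list had a median near 0. Of 12 late neutrophil genes, Ltf, Ly6g and S100a8 rose in c-kit-positive cells of knock-in leukaemias. In this comparison 0.141% of all tested genes passed in either direction. The late neutrophil list had a median of 1.19. Its mean log2 level was 7.62 to 8.31 on the WT c-kit-positive arrays and 8.80 to 9.15 on the knock-in ones. In c-kit-negative cells it was 8.76 to 9.57 and 10.09 to 10.44. Lyz2, the lysozyme gene of the monocyte list, also rose in knock-in c-kit-positive cells (log2 1.29, adjusted p = 0.0484), as 1 of 9 genes of that list. The list itself had a median of -0.16, with 7 of its 9 genes below 0. Of the 8 immature myeloid genes 0 passed there with limma and 2 had an unadjusted p under 0.05, against 9.89% of tested genes. Their median was -0.12, with 7 below 0 and 1 above. Knock-in arrays lay below WT arrays in 3 of the 8, against 9.88% of tested genes. Among these were Flt3 (-1.47, adjusted p = 0.215) and Cd34 (-1.28, adjusted p = 0.338). Mpo, Elane and Prtn3 had c-kit-positive group means of 10.76, 12.43 and 9.63 in WT and 10.69, 12.38 and 9.72 in knock-in leukaemias. Ctsg was lower under the knock-in label, at 11.1 against 11.98 in WT, while Ms4a3 had 9.42 against 9.43. Of 17 mitosis and S phase genes, 0 passed in c-kit-positive cells with limma, and 0 had an unadjusted p under 0.05. Their median was 0.04, against -0.43 for the listed genes. Their mean level was 8.48 to 8.55 on WT c-kit-positive arrays and 8.38 to 8.71 on knock-in ones. In c-kit-negative cells their median was -0.36, against -0.23 for the listed genes, with mean levels of 7.57 to 8.17 on WT and 6.98 to 7.93 on knock-in arrays. The part of these cell types or of cell division in the differences of the listed genes was not tested.

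**Figure D3:**
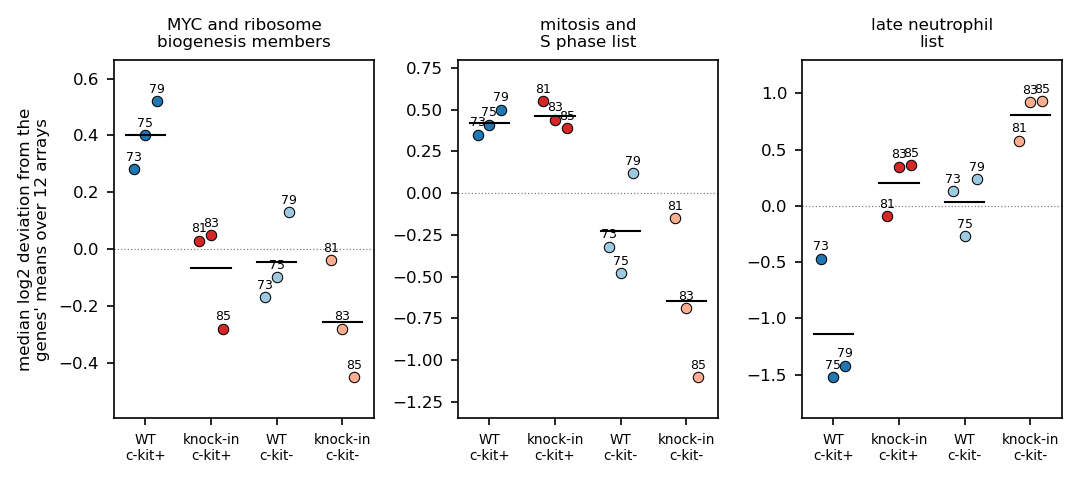
Median log2 deviation from the genes' means over 12 arrays, 1 point per array labelled by leukaemia number and lines for group means, for the 39 listed genes (left), 17 mitosis and S phase genes (middle) and 12 late neutrophil genes (right). The vertical scales differ. In c-kit-positive cells the WT and knock-in arrays stand apart in the left panel (0.28 to 0.52 and -0.28 to 0.05) and in the right panel, and overlap in the middle panel (0.35 to 0.50 and 0.39 to 0.55).

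The other comparison set c-kit-positive against c-kit-negative cells of the same leukaemias. Over both genotype labels, 11 of 39 genes rose in c-kit-positive cells with limma and 0 fell, where 5.84% of tested genes rose. These were Myc, Nop58, Dkc1, Nhp2, Ncl, Mybbp1a, Noc4l, Wdr43, Odc1, Ppat and Tfrc. With the leukaemia number as a replicate block, 26 rose, among them all 11, where 13.0% of tested genes rose. The median difference was 0.35, or 1.27-fold, against -0.03 for all tested genes. In 22 of 39 genes the c-kit-positive array was the higher one in every one of the 6 leukaemias, against 13.0% of tested genes. Without the block the count depended on single leukaemias, with 2 without 73, 0 without 75, 6 without 79, 1 without 83, 13 without 81 and 15 without 85. Without leukaemia 81, Tfrc was lost and Nop16, Ppan and Wdr74 were gained. With the block it was 23 to 27 whichever leukaemia was left out.

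Myc had c-kit-negative levels of 7.34, 7.61 and 7.89 in the WT group and of 7.55, 7.22 and 6.97 in the knock-in group. Set against the c-kit-positive values above, it was higher in c-kit-positive cells in 6 of 6 leukaemias, by 0.11 in leukaemia 85 and by 1.0 in leukaemia 73. It rose by 0.56 on average (SE 0.16, adjusted p = 0.0459), or 1.47-fold, and an exact two-sided sign-flip permutation test of the 6 differences gave p = 0.0312, the smallest it allows (0.188 adjusted over 6 exact tests). Its call was lost without a filter, with each array centred on its median, and without leukaemia 73, 75, 79 or 83. Mycn had c-kit-negative values of 4.62, 4.59 and 4.47 in WT and 4.62, 4.86 and 4.88 in knock-in leukaemias, and its difference was -0.11. For Max, whose c-kit-negative values stand above, it was -0.06. Neither passed.

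In the small nucleolar ribonucleoproteins, 3 of 7 genes rose, and 5 with the block, where 5.84% and 13.0% of tested genes did. Nhp2 rose 1.56-fold (log2 0.64, SE 0.15, adjusted p = 0.0201), from c-kit-negative levels of 6.27, 6.35 and 6.64 in WT and 6.48, 6.23 and 5.91 in knock-in leukaemias. Nop58 rose 1.54-fold (log2 0.62, adjusted p = 0.0190), from 6.52, 6.47 and 6.91 in WT and 6.49, 6.38 and 5.91 in knock-in leukaemias. Dkc1 rose 1.47-fold (log2 0.56, adjusted p = 0.0281). It was at 6.66, 6.42 and 6.69 in WT c-kit-negative cells and at 6.68, 6.06 and 5.88 in knock-in ones. All 3 genes were higher in c-kit-positive cells of every leukaemia. Gar1 had c-kit-negative levels of 6.23, 6.13 and 6.18 in WT and 6.05, 5.86 and 5.94 in knock-in leukaemias, and passed with the block (log2 0.27, adjusted p = 0.0457) but not in the same fit to all arrays without it. The block call was lost on leaving out any leukaemia other than 73, and without 73 it also passed with no block. Leukaemia 73 was the 1 in which its c-kit-positive array was lower.

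Ncl had the largest c-kit difference of the list. Its c-kit-negative levels were 8.27, 7.95 and 8.57 in WT leukaemias and 8.03, 7.80 and 6.81 in knock-in leukaemias, with leukaemia 85 by far the lowest. It rose 1.80-fold (log2 0.85, SE 0.19, adjusted p = 0.0174), and the groups did not overlap under either genotype label. Mybbp1a rose 1.63-fold (log2 0.70, adjusted p = 0.0157), from 7.22, 7.47 and 7.80 in WT and 7.32, 6.67 and 6.46 in knock-in leukaemias. Npm1, with c-kit-negative levels of 9.24, 9.11 and 9.38 in WT and 9.12, 8.91 and 8.52 in knock-in leukaemias, passed with the block and not without it (log2 0.36, adjusted p = 0.00679 and 0.107). Polr1b had 6.55, 6.62 and 6.81 in WT and 6.54, 6.66 and 6.36 in knock-in c-kit-negative cells, a difference of 0.24 that did not pass with or without the block over all arrays. Polr1a had 0.03, and Ddx21 0.35.

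Of the 6 small subunit genes, Wdr43 and Noc4l rose, with and without the block, where 13.0% and 5.84% of tested genes did. Wdr43 rose 1.39-fold (log2 0.48, adjusted p = 0.0303), from 7.33, 7.5 and 7.75 in WT and 7.54, 7.36 and 6.90 in knock-in c-kit-negative cells. Noc4l rose 1.25-fold (log2 0.33, adjusted p = 0.0224), from 5.59, 5.75 and 5.82 in WT and 5.72, 5.55 and 5.47 in knock-in leukaemias. Both were higher in c-kit-positive cells of 6 of 6 leukaemias. Nop14 had 5.92, 5.75 and 5.96 in WT and 5.66, 5.47 and 5.47 in knock-in c-kit-negative cells, a difference of 0.18 that did not pass. Rrp12 had 0.02, Utp20 0.19 and Bysl 0.22.

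None of the 12 large subunit genes passed in the fit to all arrays without the block, where 5.84% of tested genes rose. At an unadjusted p under 0.05 there were 9, against 23.4% of tested genes in either direction. With the block 9 rose, where 13.0% of tested genes did. Leaving out leukaemia 81 brought Nop16, Ppan and Wdr74 past the threshold without the block, leaving out 79 Nop16 and Wdr12, and leaving out 85 Noc2l, Gnl3 and Ddx18. So did quantile normalization for Nop16, the mean of all probe sets for Ppan and the trend and robust prior for Gnl3. Gnl3 missed the threshold narrowly (log2 0.51, adjusted p = 0.0502), with c-kit-negative levels of 6.09, 6.01 and 6.51 in WT and 6.04, 5.96 and 5.53 in knock-in leukaemias. With the block it passed (adjusted p = 0.000373), and its c-kit-positive array was the higher in 6 of 6 leukaemias. Pes1, at 7.36, 7.45 and 7.62 in WT and 7.27, 7.16 and 7.0 in knock-in c-kit-negative cells, differed by 0.29 and passed with the block (adjusted p = 0.00928). Noc2l had the largest difference of this role, 0.65, and passed with the block (adjusted p = 0.000216). Rrs1 was the exception again, at 6.75, 6.89 and 6.69 in WT and 6.74, 6.92 and 6.85 in knock-in c-kit-negative cells. Its difference was -0.12, and in knock-in leukaemias its c-kit-positive arrays lay below the c-kit-negative ones.

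Growth enzymes and the iron receptor all had higher levels in c-kit-positive cells, and 3 of 5 rose, where 5.84% of tested genes did. Ppat rose 1.35-fold (log2 0.43, adjusted p = 0.0305), from 6.49, 6.55 and 6.79 in WT and 6.47, 6.32 and 6.07 in knock-in c-kit-negative cells. Tfrc rose 1.39-fold (log2 0.47, adjusted p = 0.0376), from 7.05, 7.0 and 6.90 in WT and 6.57, 7.18 and 6.29 in knock-in leukaemias. Odc1 rose 1.25-fold (log2 0.32, adjusted p = 0.0392), from 6.98, 7.12 and 7.14 in WT and 7.27, 6.99 and 6.88 in knock-in leukaemias. Odc1 ran the other way in leukaemia 81, by -0.21, while Ppat and Tfrc were higher in 6 of 6. Over all arrays Srm and Cad passed with the block (adjusted p = 0.00147 and 0.00662) and not without it, and Srm also passed without it when leukaemia 85 was left out. Srm had c-kit-negative levels of 7.94, 7.99 and 8.44 in WT and 8.15, 7.76 and 7.32 in knock-in leukaemias. Cad had 6.03, 6.33 and 6.64 in WT and 6.45, 5.88 and 6.26 in knock-in leukaemias.

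**Figure D4:**
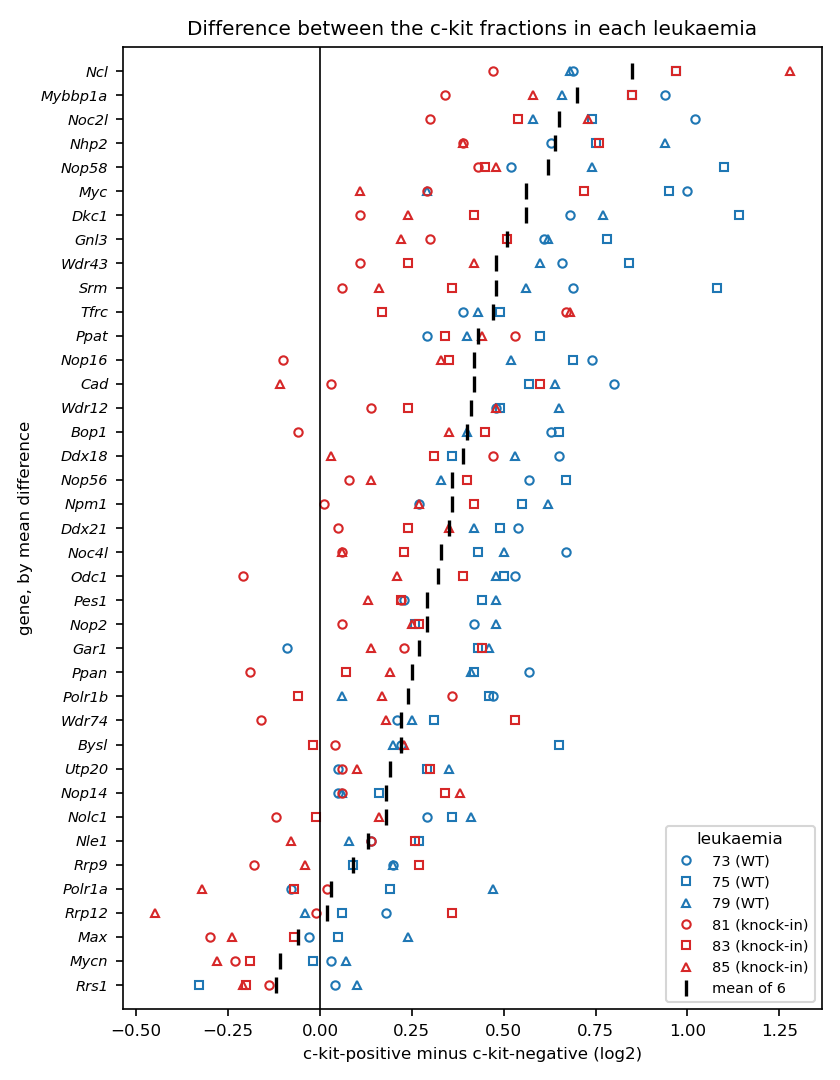
Difference between the c-kit-positive and the c-kit-negative array of each leukaemia in log2 units for 39 genes, ordered by the mean of 6 leukaemias (black bars). Blue symbols are WT leukaemias 73, 75 and 79 and red symbols knock-in leukaemias 81, 83 and 85. Ncl has the highest mean (0.85) and Rrs1 the lowest (-0.12).

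Within the WT leukaemias alone, the median c-kit difference was 0.48, and 23 of 39 genes had c-kit-positive arrays above all c-kit-negative ones, against 14.5% of tested genes. Noc4l was the 1 gene that rose with limma (log2 0.53, adjusted p = 0.0466), where 0.397% of tested genes rose. With the block 26 rose, where 7.96% of tested genes did, and a fit to these 6 arrays alone gave 16. Noc4l lost its call without leukaemia 73, 75, 79 or 83, with no filter and with arrays centred on their medians, while 7 genes rose without 81 and 14 without 85. With the block, 12 rose without leukaemia 73 and 9 without leukaemia 75. Dkc1 had the highest WT difference, at 0.86.

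Within the leukaemias labelled knock-in the median was 0.19. The groups did not overlap for 4 genes that were higher in c-kit-positive cells (Gar1, Ncl, Nop14 and Ppat), against 7.24% of tested genes. Max and Rrs1 were lower without overlap, as were 1222 of 19152 tested genes. None passed with limma, where 1.13% of tested genes rose. At an unadjusted p under 0.05 there were 7 higher and 1 lower, against 12.6% of tested genes in either direction. With the block 8 rose (Nop58, Nhp2, Ncl, Mybbp1a, Noc2l, Gnl3, Ppat and Tfrc), where 5.95% of tested genes rose. Leaving out leukaemia 81, 83 or 85 left 4, 2 or 3 of them with the block.

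The genotype labels were not shown to differ in the c-kit difference. The interaction had a median of -0.26 over the 39 genes and was below 0 for 34, that is, a smaller c-kit difference in knock-in leukaemias. None of the 39 genes passed with limma, where 0% of tested genes did, with or without the block. At an unadjusted p under 0.05 there were 4 (Nolc1, Noc4l, Ppan and Odc1), against 2.23% of tested genes. Dkc1 had the largest interaction at -0.61 (95% confidence interval -1.21 to 0.00). By leukaemia, the median c-kit difference of the 39 genes was 0.48, 0.49 and 0.46 in 73, 75 and 79, and 0.06, 0.34 and 0.19 in 81, 83 and 85. The lowest WT leukaemia stood above the highest knock-in leukaemia in this summary. All share the c-kit-positive and c-kit-negative arrays of the comparisons above.

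Genes of cell division and of myeloid maturation moved with the sort. Of 17 mitosis and S phase genes, 14 rose in c-kit-positive cells over both labels, with a median of 0.93, where 5.84% of tested genes rose. By leukaemia their median c-kit difference was 0.76, 0.91 and 0.36 in 73, 75 and 79, and 0.73, 1.06 and 1.40 in 81, 83 and 85. This order differs from that of the listed genes, with leukaemia 85 the highest. Of 12 late neutrophil genes 7 fell, with a median of -0.91, and of 9 monocyte and macrophage genes 7 fell, with a median of -0.82. Over all tested genes 462 of 19152 fell. Of 8 genes of immature myeloid cells 6 rose, Mpo, Elane, Prtn3, Ctsg, Ms4a3 and Kit, the last being the gene of the sort marker itself. The other 2, Flt3 and Cd34, were lower in c-kit-positive cells and did not pass. Flt3 differed by -0.37, and Cd34 had group means of 8.09 against 8.47 in WT and 6.81 against 6.88 in knock-in leukaemias. The monocyte list had a mean level of 7.17 to 7.44 on c-kit-positive and 7.99 to 8.85 on c-kit-negative arrays. Of 6 B cell genes Ighm fell and the other 5 did not pass, with 5 of the 6 below 0 and Cd79b above it (0.37). None of 8 T and NK cell, 3 erythroid and 4 megakaryocyte genes passed with limma, and 2, 0 and 0 of them had an unadjusted p under 0.05. Cd3d of T cells and Klf1 of erythroid cells were at or below the filter value in the knock-in c-kit-positive group. Their part in the c-kit differences of the listed genes was not tested.

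Other genes of the pathway were counted the same way. Of 114 tested genes for RNA polymerase I and further ribosome assembly, 105 had lower levels in c-kit-positive cells of knock-in leukaemias. Their median was -0.28. None passed with limma, where 0.141% of tested genes did. At an unadjusted p under 0.05 there were 54, against 9.89% of tested genes. In 52 the knock-in arrays lay below WT arrays, against 9.88% of tested genes. Nmd3, the export adaptor of the large subunit, had 7.17, 7.28 and 7.35 in WT and 6.55, 6.84 and 6.55 in knock-in c-kit-positive cells. Its difference of -0.62 (SE 0.12, adjusted p = 0.0723) was the nearest to the threshold. Between the c-kit fractions 21 of 114 rose and 0 fell, where 5.84% of tested genes rose. With the block 55 rose, where 13.0% of tested genes did. Nob1, the nuclease that finishes the small subunit RNA, rose 1.33-fold (log2 0.42, adjusted p = 0.00613), and Lsg1, a GTPase of late large subunit maturation, 1.30-fold (log2 0.38, adjusted p = 0.00477). Utp4 rose 1.5-fold and Nop10, the remaining H/ACA core protein, 1.63-fold. None of the 15 further genes of RNA polymerase I and its factors rose without the block, and 5 did with it. At an unadjusted p under 0.05 there were 5, against 23.4% of tested genes in either direction.

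In nucleotide synthesis, 8 of 18 tested genes rose in c-kit-positive cells over both labels, where 5.84% of all tested genes rose. With the block 15 rose, where 13.0% of all tested genes did. Gart, of purine synthesis, rose 1.67-fold (log2 0.74, adjusted p = 0.0227), and Gmps, which makes guanine nucleotides, 1.49-fold (log2 0.58, adjusted p = 0.0066). The others were Adsl, Umps, Prps2, Tyms, Mthfd1 and Shmt1. Between the genotype labels in c-kit-positive cells the 18 genes had a median of -0.49. None passed with limma, and 11 had an unadjusted p under 0.05, against 9.89% of all tested genes. Of 9 genes of translation initiation and amino acid uptake, Eif4e, Eif3b and Eif2b3 rose in c-kit-positive cells. Slc7a5, an amino acid transporter gene, had 8.52, 8.72 and 8.49 in WT and 7.34, 7.77 and 7.31 in knock-in c-kit-positive cells. Its difference of -1.1 (SE 0.20), or 2.15-fold lower, did not pass (adjusted p = 0.0650), and the groups stood clearly apart.

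Among 15 genes of the MYC network and of MYC turnover, Mxd1 fell and Huwe1 rose in c-kit-positive cells, and the other 13 did not pass. Over all tested genes 5.84% rose and 462 of 19152 fell, which also stands beside the polyamine and iron calls below. A single call in a list this short says little about the list. Mxd1, a partner of Max that opposes Myc in maturing cells, was at 8.59, 8.49 and 8.37 in WT c-kit-positive cells and at 9.19, 8.96 and 8.99 in WT c-kit-negative cells. In knock-in leukaemias it was at 8.46, 9.14 and 8.74 and at 9.24, 9.86 and 9.55. It fell by 0.67 on the log2 scale (adjusted p = 0.00627) and was lower in c-kit-positive cells of every leukaemia. Huwe1, a ubiquitin ligase that acts on Myc, rose 1.42-fold (adjusted p = 0.0323). In polyamine metabolism Eif5a, the hypusine-bearing translation factor gene, rose 1.30-fold and Smox, spermine oxidase, fell by 0.46, among 11 genes. Fth1, the ferritin heavy chain gene, fell by 0.80 (adjusted p = 0.00272) while Tfrc rose, among 9 further genes of iron handling. Of 7 genes that Myc is known to repress, such as the cell cycle inhibitors Cdkn1a and Cdkn1b, 0 passed with limma in any of these comparisons without the block. Between the c-kit fractions over both labels, 4 had an unadjusted p under 0.05, against 23.4% of tested genes. With the block 3 fell, where 1266 of 19152 tested genes did.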

How the data were processed

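Gene expression was measured in 12 sorted samples with Affymetrix arrays. The deposited table held log2 values for 41345 probe sets, made by the authors with RMA in Affymetrix Expression Console, per the submitters' processing notes, which give no versions. RMA fixes the overall distribution of each array, so a shift of all genes in 1 sample would not show. An annotation gave 1 symbol for 23521 probe sets and several for 1814, and 16010 were not listed. Genes were tested if they exceeded 4.61, the 25th percentile, on at least 3 arrays. One limma model (version 3.58.1, statmod 1.5.0, R 4.3.3) with 4 group means was fitted to all 12 arrays and 19152 genes, with two-sided tests and Benjamini-Hochberg adjustment over these genes, and a threshold of 0.05. The genotype comparison over both fractions used leukaemia means. Python 3.11.15 with pandas 2.3.3 and scipy 1.17.1 made the summaries. The fit was tested on simulated data.

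The number in a sample's label is shared by both fractions of a leukaemia. Deviations of both arrays from their group means correlated at 0.279 to 0.601 in all 6 leukaemias. An alternative fit took this pairing as a replicate block, fixed for the c-kit comparisons and random (correlation 0.353) for the genotype comparisons. Other alternatives were no filter, other scalings, the mean of all probe sets, a trend and robust prior, fits to the compared arrays and leaving out each leukaemia.

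The genes and lists were chosen with earlier results of these data known. Values on every array are given for Myc, Mycn and Max, for the genes past a threshold, and in each role for the genes with the smallest p between the genotype labels or between the c-kit fractions and the gene farthest against the role's median. From the further lists, genes past the threshold or with the smallest p were named. A comparison of protein sequences was not made. Precision here is limited by how many arrays there are.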

Additional observations from a re-analysis of the deposited data

How the results depend on the processing

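The median differences of the 39 genes moved by less than 0.17, the SD of array medians within groups, in every comparison and under every alternative tried, while the number of genes past the threshold depended on the fit. Between the genotype labels in c-kit-positive cells the count was 0 to 3 when single leukaemias were left out and 1 in a fit to the compared arrays only. Over both fractions it was 0 to 2 on leaving out leukaemias. It stayed at 0 in c-kit-negative cells and for the interaction under every alternative that was run. For c-kit-positive against c-kit-negative cells in WT leukaemias, the count of 1 became 0 with no filter, 0 with each array centred on its median, 16 in a fit to the compared arrays only and 26 with the replicate block, and it was 0 to 14 on leaving out leukaemias. In knock-in leukaemias the replicate block gave 8. Over both labels it gave 26 in place of 11, and leaving out leukaemias without the block gave 0 to 15. In the block fits, an alternative chosen after seeing the data, leaving out a leukaemia gave 23 to 27 over both labels, 9 to 26 in WT and 2 to 7 in knock-in leukaemias. The cause of these shifts was not tested, though leaving out a leukaemia and fitting fewer arrays use fewer samples. Values near 0 changed sign. In c-kit-positive cells the Mycn difference of -0.03 between the genotype labels was -0.088 to 0.052 on leaving out leukaemias. In c-kit-negative cells Cad was -0.286 to 0.022, Odc1 was -0.144 to 0.048, and Rrs1 turned from 0.063 to -0.008 with the mean of all probe sets.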
